A study of Mus musculus with 4 samples.

Results

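The genes described here encode the machinery of homologous recombination and of Fanconi anaemia repair. They were taken from a named list of 42 genes and found by exact match with the symbol that each gene identifier of the files ends with, and all 42 were present among the 53379 genes measured. RNA was compared between pre-ALT cells at population doubling 100 (PD100) and post-ALT cells at population doubling 800 (PD800), with 2 libraries in each group, where ALT stands for alternative lengthening of telomeres. Both groups were the mouse embryonic stem cell line DKO741, a single *Terc*-/- line made from E14 cells. Both alleles of *Terc*, the telomerase RNA gene, were targeted with the construct TR-10, one after the other, and the loxP-flanked PGK-neo cassette was deleted by Cre, delivered by adenovirus, at the heterozygous (*Terc*+/-) stage in between. Embryonic fibroblasts served as feeders for maintenance, and RNA came from feeder-free cultures. Both groups thus carry the same targeted alleles and differ by time in culture, and the survivors of 1 line stand for the post-ALT state. The methods call the samples biological duplicates. The sample titles give population doubling levels, as the methods do, while the labels' field on treatment speaks of passages, and the labels name total RNA where the paper speaks of mRNA.

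In homologous recombination, the ends of a broken chromosome are resected to single strands, and with the help of BRCA2 and its partners these invade a matching sequence that serves as template. Fanconi proteins recognise crosslinked DNA and pass the lesion on to nucleases and to recombination. Cells that maintain telomeres without telomerase are known to copy telomeric DNA by recombination.

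*Terc* itself was near absent, with 1 expected count in the first PD100 library and 0 in each of the other 3. Expected counts, RSEM's estimate of the read pairs that stem from a gene, totalled 38492149 and 32454121 at PD100 and 37460820 and 33362106 at PD800, in the order of replicates kept throughout. A floor of 3 counts lay between 0.0743 and 0.0934 CPM (counts relative to a library's total after edgeR's TMM scaling), and it covers counting error only. The lowest expected count of any member in a library was 132, so every member was measured well above this floor. All 10 embryonic stem cell markers were expressed in both groups, with a median log2 fold change of 0.59 for PD800 over PD100. Of these markers, 4 were called higher by edgeR and 0 lower. Their summed TPM (a level scaled for transcript length and depth) was 1523 and 1825 at PD100 and 2221 and 2265 at PD800. *Dppa5a* was the most abundant of them. Markers of other cell types moved with the groups as well. The 10 primitive endoderm markers summed to 463 and 455 TPM at PD100 and to 41.9 and 41.5 TPM at PD800, *Sparc* being the most abundant, and all 10 were called lower by edgeR, with a median log2 fold change of -3.47. *Foxa2*, one of them, had 1 expected count in each PD800 library, which is under the floor. Of the 10 fibroblast markers, 9 were tested and 5 were called lower, with a median log2 fold change of -2.33 over the 9. The list summed to 16.5 and 16.9 TPM at PD100 and to 9.00 and 8.70 TPM at PD800. *Thy1* in PD100 replicate 1, *Col1a2* in PD100 replicate 2 and *Fbln1* in both PD800 libraries were the most abundant, and the log2 fold change of *Fbln1* was 0.84. *Lum*, the marker that was not tested, had 0 counts in 3 of the 4 libraries. The part of these marker changes in the results on the repair genes was not tested, and in bulk RNA fewer cells of a type and less RNA per cell cannot be told apart.

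Among the repair genes, *Brca2*, *Xrcc3* and *Rad51b* were higher and *Rad51c* was lower at PD800 by more than 2-fold. All 42 members passed the expression filter, and 3 were called higher and 1 lower, that is more than 2-fold changed with a Benjamini-Hochberg adjusted p below 0.01 in edgeR's quasi-likelihood test, where 6.28% of all 19148 tested genes were called higher and 8.81% lower. At an adjusted p under 0.01 alone, 6 members were higher and 5 lower, against 13.1% and 15.4% of all tested genes, and 31 members passed in neither direction. Apart from the 1 member called lower, a smaller share than among all genes, these counts lie near the background. The median log2 fold change of the members was 0.11, beside 0.01 for all tested genes, and the estimates of 25 members lay above 0. Less than a 1.5-fold difference was seen for 73.8% of the members and for 60.2% of all tested genes. These 2 sets were not matched for level. Every member had at least 132 expected counts in each library, while the tested genes include less abundant ones. *Brca2* was the 1 member left when edgeR tested against a 2-fold change in place of no change, a test that left 2.02% of all genes higher and 3.58% lower. On the TPM scales, log2(TPM + 1) and log2(TPM + 0.1), the median of all genes was -0.12 and -0.21, the median of the members was -0.11 and -0.13, and *Brca2* was the 1 member called higher by limma on each, against 1.55% and 2.78% of all tested genes. *Rad51c* was not called on either, and *Rad51d* was called lower on the second, where 9.29% of all genes were called lower. The estimates of 9 members, *Xrcc2*, *Bard1*, *Nbn*, *Blm*, *Slx4*, *Fancl*, *Fancd2*, *Atm* and *Atr*, had the other sign on these scales. A fit with 1 library left out takes its spread from the group that keeps 2. The chi-square per degree of freedom between replicates was 65.3 at PD100 and 10.1 at PD800. Passes without a PD100 library, here and below, thus rest on the spread of the PD800 pair. Like the shares of all tested genes, the counts of members at an adjusted p under 0.01 alone moved in these fits. In edgeR they were 14 higher and 10 lower without PD100 replicate 1, where 20.9% and 21.8% of all tested genes passed, and 14 and 9 without PD100 replicate 2, against 18.7% and 21.9%. Without PD800 replicate 1 they were 5 and 3, against 6.14% and 7.72%, and without PD800 replicate 2 they were 4 and 1, against 6.60% and 7.91%.

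**Figure D1:**
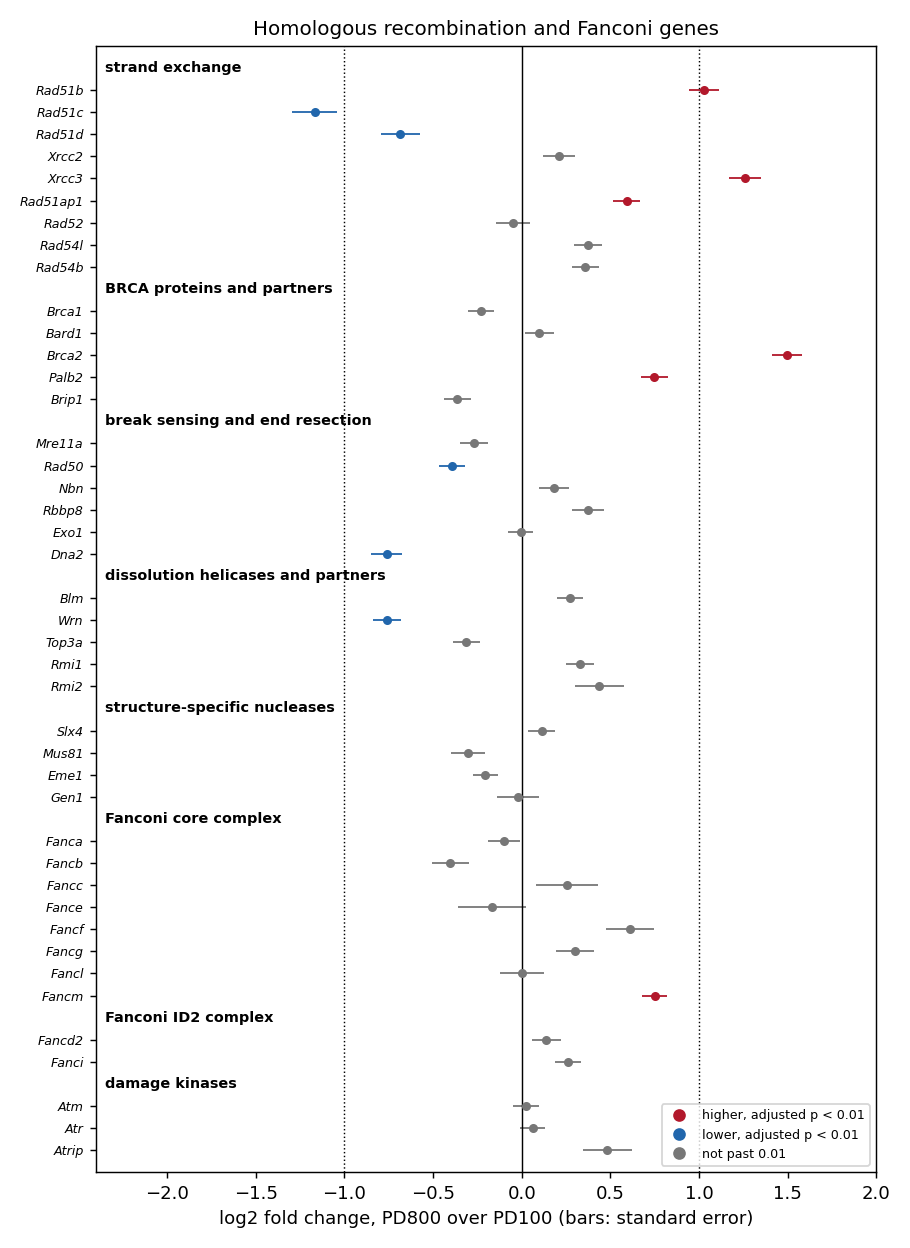
The 42 genes, grouped by role, with their log2 fold change (PD800 over PD100) on the horizontal axis, with edgeR's standard error as bars and dotted lines at a 2-fold change. The 6 red genes were higher and the 5 blue genes lower at an adjusted p under 0.01, and *Brca2* lies farthest to the right at 1.497.

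The genes of the BCDX2 and CX3 complexes split in both directions. These are the BCDX2 complex of RAD51B, RAD51C, RAD51D and XRCC2 and the CX3 complex of RAD51C and XRCC3, which act in strand exchange. *Xrcc3* (ENSMUSG00000021287, chromosome 12 of GRCm38, 111803192 to 111813873) was at 10.999 and 9.98 CPM at PD100 and at 25.0 and 25.4 CPM at PD800. Both PD800 libraries thus lay above both PD100 libraries. Its means were 10.5 ± 0.723 CPM and 25.2 ± 0.289 CPM (SD, n = 2), a 2.40-fold higher level with a log2 fold change of 1.26 (SE, the standard error, 0.09, edgeR adjusted p = 0.000229). *Rad51b* (ENSMUSG00000059060, chromosome 12, 79297282 to 79814690) was at 10.4 and 10.9 CPM at PD100 and at 21.5 and 21.9 CPM at PD800, again without overlap. The log2 fold change of *Rad51b* was 1.03 (SE 0.09, edgeR adjusted p = 0.000368), close to the fold threshold, and it was 0.99 without PD100 replicate 1. On the TPM scales *Xrcc3* had log2 fold changes of 0.76 and 0.88 and *Rad51b* of 0.70 and 0.80, under 2-fold. *Rad51c*, shared by both complexes, went the other way. It (ENSMUSG00000007646, chromosome 11, 87376645 to 87404954) was at 11.3 and 10.1 CPM at PD100 and at 5.09 and 4.42 CPM at PD800, a log2 fold change of -1.17 (SE 0.13, edgeR adjusted p = 0.000944). Both PD800 libraries lay below both PD100 libraries, and the level was 2.25-fold lower. Limma on log2(TPM + 1) and log2(TPM + 0.1) gave *Rad51c* log2 fold changes of -1.06 and -1.44, more than 2-fold lower, with adjusted p-values of 0.0130 and 0.0101, and over all alternatives, DESeq2 and edgeR included, they ranged from 1.93e-13 to 0.0130.

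*Rad51d* (chromosome 11, 82876434 to 82890614) was named after its values were seen. It was at 19.5 and 23.1 CPM at PD100 and at 12.8 and 13.7 CPM at PD800, and its log2 fold change was -0.69 (SE 0.11, edgeR adjusted p = 0.0041). Without PD800 replicate 1 and without PD800 replicate 2, edgeR's adjusted p of *Rad51d* was 0.0312 and 0.0181 (3.72e-08 to 0.0312 over all alternatives). *Xrcc2* had a log2 fold change of 0.21 and did not pass (edgeR adjusted p = 0.112, 0.00841 without PD100 replicate 2 and 0.00841 to 0.866 over all alternatives). Of the 4 genes of BCDX2, 1 was higher, 2 were lower and 1 passed in neither direction, where 13.1% of all tested genes were higher and 15.4% lower in edgeR. *Rad51ap1*, which promotes strand pairing, was at 29.4 and 29.5 CPM at PD100 and at 43.3 and 45.4 CPM at PD800. It rose by 0.59 in log2 terms (SE 0.08, edgeR adjusted p = 0.00162), with no overlap between the groups, and did not pass without PD800 replicate 1 or without PD800 replicate 2 (edgeR adjusted p = 0.0190 and 0.0324). On the TPM scales it lay at 0.32 and 0.33 and did not pass in limma either (adjusted p = 0.0409 and 0.0413, with 1.98e-07 to 0.0413 over all alternatives). The strand annealing gene *Rad52* had a log2 fold change of -0.05, and the genes of motor proteins of strand exchange, *Rad54l* and *Rad54b*, had 0.37 and 0.36. In edgeR's main fit none of these 3 passed an adjusted p of 0.01. That fit used all libraries, TMM factors, the expression filter and no pairing of libraries by replicate number. *Rad54l* and *Rad54b* lay just above the threshold (edgeR adjusted p = 0.0116 and 0.0111). Both passed in edgeR with upper-quartile factors, with no filter and without either PD100 library, and *Rad54l* also in DESeq2, with adjusted p-values over all alternatives from 0.000937 to 0.509 for *Rad54l* and from 0.00113 to 0.931 for *Rad54b*. In TPM terms, on the same 2 scales, *Rad54l* lay at 0.0956 and 0.103 and *Rad54b* at 0.0159 and 0.0165. *Rad52* had the other sign without PD100 replicate 1, at 0.0329.

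*Brca2* had the largest log2 fold change of the 42 members. BRCA2 acts on resected single-stranded DNA, and PALB2 joins it to BRCA1. *Brca2* (ENSMUSG00000041147, chromosome 5, 150522630 to 150570329) was at 150.4 and 138 CPM at PD100 and at 417 and 398 CPM at PD800. The lowest PD800 library was thus far above the highest PD100 library. Its means were 144 ± 8.55 CPM and 408 ± 13.96 CPM (SD, n = 2), a 2.82-fold higher level with a log2 fold change of 1.497 (SE 0.09, edgeR adjusted p = 0.000111). Across the alternatives its log2 fold change lay between 1.25 and 1.56. *Palb2*, also named after its values were seen, was at 30.4 and 31.9 CPM at PD100 and at 52.0 and 52.6 CPM at PD800. Its log2 fold change was 0.75 (SE 0.08, edgeR adjusted p = 0.000689), and the groups did not overlap. Without PD800 replicate 2 the adjusted p of *Palb2* in edgeR was 0.0112, and in limma on the TPM scales it was 0.0152 and 0.0144 (1.02e-11 to 0.0152 over all alternatives). *Brip1*, the helicase bound by BRCA1, was the lowest of this group, at 29.7 and 30.2 CPM at PD100 and at 23.7 and 22.9 CPM at PD800, with a log2 fold change of -0.36 that did not pass (SE 0.08, edgeR adjusted p = 0.0108). It passed with DESeq2's size factors, with no filter, without PD100 replicate 1 and without PD100 replicate 2 (edgeR adjusted p = 0.00969, 0.00331, 0.00174 and 0.00155, with 0.00155 to 0.152 over all alternatives). *Brca1*, which promotes resection, and *Bard1*, its partner in a ubiquitin ligase, had log2 fold changes of -0.23 and 0.10, and neither passed with all libraries. *Brca1* passed without PD100 replicate 2 (edgeR adjusted p = 0.00496, with 0.00496 to 0.331 over all alternatives).

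**Figure D2:**
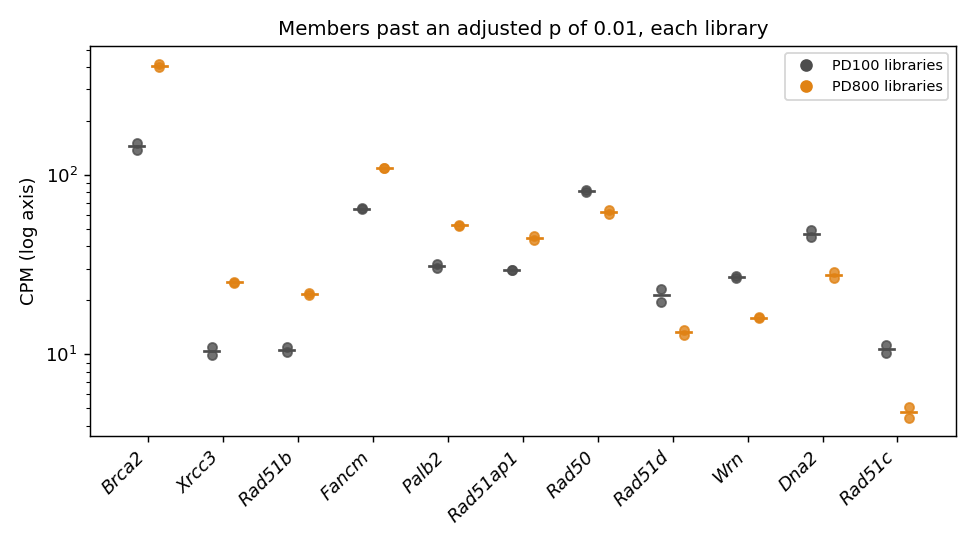
CPM on a log axis in each PD100 and PD800 library for the 11 genes past an adjusted p of 0.01, with bars at the group means. The PD800 libraries lie above the PD100 libraries for 6 genes and below them for 5, and *Brca2* is the most abundant by counts.

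Of the 6 genes of break sensing and end resection, 2 were lower at an adjusted p under 0.01 in edgeR, where 15.4% of all tested genes were, and 4 passed in neither direction. *Dna2*, a nuclease and helicase of long-range resection, was at 45.01 and 49.3 CPM at PD100 and at 28.9 and 26.6 CPM at PD800. The groups did not overlap, and the log2 fold change was -0.76 (SE 0.09, edgeR adjusted p = 0.00118, 0.0196 without PD800 replicate 2 and 4.82e-12 to 0.0196 over all alternatives). *Rad50*, the ATPase of the MRN complex that holds broken ends, was named after its values were seen. It was at 80.7 and 82.7 CPM at PD100 and at 60.7 and 63.7 CPM at PD800, a log2 fold change of -0.39 (SE 0.07, edgeR adjusted p = 0.00693). Its adjusted p in edgeR was 0.141 without PD800 replicate 1 and 0.0814 without PD800 replicate 2 (0.000358 to 0.141 over all alternatives). The other MRN genes, *Mre11a* and *Nbn*, had log2 fold changes of -0.27 and 0.18 and did not pass in edgeR with all libraries. *Mre11a* passed in limma on the TPM scales, at -0.56 and -0.58 (adjusted p = 0.00908 and 0.00894), and in edgeR without PD100 replicate 1 and without PD100 replicate 2 (adjusted p = 0.00194 and 0.00917, with 0.00194 to 0.328 over all alternatives). *Rbbp8*, which encodes CtIP and starts resection, had the highest estimate of the group, 0.37 (SE 0.09, edgeR adjusted p = 0.0187). It was at 29.6 and 26.5 CPM at PD100 and 37.6 and 35.0 CPM at PD800. Its log2 fold change on the TPM scales was 0.115 and 0.132. *Rbbp8* passed with no filter, without PD100 replicate 1 and without PD100 replicate 2 (edgeR adjusted p = 0.00249, 0.000483 and 0.00935, with 0.000483 to 0.556 over all alternatives). *Exo1*, which encodes a further nuclease of long-range resection, was at 86.5 and 84.4 CPM at PD100 and at 84.0 and 86.1 CPM at PD800, so that the groups overlapped, and its log2 fold change was -0.01 (SE 0.07, edgeR adjusted p = 0.951). The sign of this estimate turned with upper-quartile factors, to 0.00690, and without PD100 replicate 1 or PD800 replicate 1, to 0.0148 and 0.0116. In TPM the groups of *Exo1* did not overlap. Its log2 fold change on the TPM scales was -0.25 and -0.26 (limma adjusted p = 0.0652 and 0.0674).

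The next role group holds *Wrn*, *Blm*, *Top3a*, *Rmi1* and *Rmi2*. Of these, *Wrn* was the one gene past an adjusted p of 0.01 in edgeR's main fit, where 15.4% of all tested genes were lower. WRN is the helicase lost in Werner syndrome. Its gene was at 26.8 and 27.5 CPM at PD100 and at 16.1 and 15.9 CPM at PD800. The groups did not overlap, and the log2 fold change was -0.76 (SE 0.08, edgeR adjusted p = 0.000786, 0.0108 without PD800 replicate 2 and 1.30e-10 to 0.0108 over all alternatives). *Blm*, *Top3a* and *Rmi1*, which encode the complex that dissolves double Holliday junctions, had log2 fold changes of 0.27, -0.31 and 0.33. None of them passed in edgeR's main fit. Without PD100 replicate 1 all 3 passed (edgeR adjusted p = 0.00293, 0.00892 and 0.00260), and without PD100 replicate 2 *Top3a* and *Rmi1* did (edgeR adjusted p = 0.00115 and 0.00889). Over all alternatives the adjusted p ranged from 0.00293 to 0.478 for *Blm*, from 0.00115 to 0.216 for *Top3a* and from 0.00260 to 0.981 for *Rmi1*, in edgeR, DESeq2 and limma. *Rmi1* also passed with no filter, and it lay at 0.00573 and 0.00749 on the TPM scales. *Rmi2* of the same complex was at 3.86 and 3.95 CPM at PD100 and at 5.51 and 5.07 CPM at PD800, a log2 fold change of 0.44 (SE 0.14, edgeR adjusted p = 0.0445). The 4 genes of structure-specific nucleases and their scaffold, which cut such junctions, passed in neither direction. *Gen1*, at -0.02, had the other sign without PD100 replicate 1, at 0.15. The log2 fold changes of the 4 ranged from -0.30 for *Mus81* (SE 0.10, edgeR adjusted p = 0.0440) to 0.11 for *Slx4*, the scaffold of the nucleases (SE 0.08, edgeR adjusted p = 0.269). On the TPM scales *Slx4* lay at -0.18 and -0.19.

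In the Fanconi core complex, the ubiquitin ligase that acts at stalled forks, 1 of 8 genes passed, as higher, where 13.1% of all tested genes were higher and 15.4% lower in edgeR. *Fancm*, whose product is a DNA translocase that anchors the complex on DNA, was at 64.6 and 65.1 CPM at PD100 and at 109 CPM in both PD800 libraries. The groups did not overlap, and the log2 fold change was 0.75 (SE 0.07, edgeR adjusted p = 0.000528). On the TPM scales it was 0.52 and 0.56 and did not pass in limma (adjusted p = 0.0149 and 0.0140, with 7.07e-13 to 0.0149 over all alternatives). *Fancb* was lowest of the 8, at 12.8 and 13.4 CPM at PD100 and 10.5 and 9.31 CPM at PD800, with a log2 fold change of -0.40 (SE 0.10, edgeR adjusted p = 0.0221). *Fancl*, the ligase subunit, had an estimate of 0.00, which lay between -0.33 and 0.16 over the alternatives. *Fanca*, *Fancc*, *Fance*, *Fancf* and *Fancg* lay between -0.17 and 0.61 without passing in edgeR's main fit. *Fance* was at -0.43 and passed without PD100 replicate 1 (edgeR adjusted p = 0.00281, with 0.00281 to 0.843 over all alternatives), and it had the other sign, 0.12, without PD100 replicate 2. *Fancf* passed with no filter, without PD100 replicate 1 and without PD100 replicate 2 (edgeR adjusted p = 0.000155, 0.00791 and 0.00112, with 0.000155 to 0.104 over all alternatives). *Fancg* passed without PD100 replicate 2 (edgeR adjusted p = 0.00795, with 0.00795 to 0.337 over all alternatives).

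*Fancc*, among the least abundant members, was at 6.39 and 9.11 CPM at PD100 and at 9.10 and 9.34 CPM at PD800, so that the groups overlapped. Its log2 fold change of 0.26 (SE 0.18, edgeR adjusted p = 0.288) was 0.0196 without PD100 replicate 1 and 0.51 without PD100 replicate 2 (for the latter edgeR adjusted p = 0.00519, with 0.00519 to 0.900 over all alternatives). *Fancb* passed with no filter and without PD100 replicate 1 (edgeR adjusted p = 0.00788 and 0.00636, with 0.00636 to 0.194 over all alternatives). *Fancd2* and *Fanci*, the pair that the core complex ubiquitinates, had log2 fold changes of 0.14 and 0.26 (SE 0.08 and 0.07, edgeR adjusted p = 0.218 and 0.0300). Their CPM was 69.9 and 63.9 at PD100 and 75.7 and 71.6 at PD800 for *Fancd2*, and 58.0 and 56.5 and then 70.2 and 67.1 for *Fanci*. On the TPM scales *Fancd2* lay at -0.0154 and -0.0166 and *Fanci* at 0.00344 and 0.00388. *Fanci* passed without PD100 replicate 1 (edgeR adjusted p = 0.00383, with 0.00383 to 0.986 over all alternatives). The damage kinase genes and *Atrip* passed in neither direction, with 0.02 for *Atm*, 0.06 for *Atr* and 0.48 for *Atrip*, the partner of ATR (SE 0.07, 0.07 and 0.14, edgeR adjusted p = 0.808, 0.507 and 0.0308). *Atrip* was at 14.5 and 11.1 CPM at PD100 and at 18.3 and 17.7 CPM at PD800, and its adjusted p in edgeR was 0.000370 with no filter and 0.000103 without PD100 replicate 1 (0.000103 to 0.181 over all alternatives).

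Levels can be compared between genes in TPM. At PD100 *Exo1* was the most abundant member, at 43.2 and 45.2 TPM. By group mean *Brca1* at 26.0 and 22.0 TPM came next, but its levels overlapped with those of *Brca2* at 23.3 and 20.6 TPM and *Eme1* at 24.0 and 19.8 TPM, and these 2 overlapped with *Mre11a* at 21.3 and 20.9 TPM. At PD800 *Brca2* came first, at 55.2 and 51.9 TPM, above *Exo1* at 37.3 and 36.4 TPM, *Rad51ap1* at 22.5 and 23.8 TPM and *Brca1* at 17.4 and 16.8 TPM. *Rmi2* was the least abundant in both groups, at 0.840 and 0.780 TPM at PD100 and 0.990 and 0.860 TPM at PD800. By mean TPM over all libraries, *Fancc* at 2.72 and *Rad51c* at 2.82 came next from the bottom. *Rad51c* went from position 36 of the 42 at PD100 to position 41 at PD800, and *Rad51b* from 33 to 21. The summed TPM of the 42 genes was 460 and 441 at PD100 and 448 and 422 at PD800, so the sums of the groups overlapped.

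The mean transcript length that RSEM gives for a gene moves when the mix of its isoforms moves. Of the 29 members with a mean of at least 5 TPM in both groups, 9 had lengths that did not overlap between the groups, against 29.6% of all such genes, which is near the background. The median absolute change was 2.63% among these members and 1.46% among all such genes. A change of more than 10% was seen for 1 of these members, or 3.45%, and for 7.9% of all such genes. *Atm*, singled out after its values were seen, had the largest change of these 29, with lengths of 7838 and 5860 bases at PD100 and of 8564 and 8672 bases at PD800, a change of 25.8%. Its counts were alike in all libraries, at 95.5 and 94.3 CPM and then 98.3 and 94.7 CPM, while its TPM was 9.67 and 11.6 at PD100 and 7.53 and 6.77 at PD800. The log2 fold change of *Atm* was -0.51 on the log2(TPM + 1) scale and -0.56 on the log2(TPM + 0.1) scale (limma adjusted p = 0.0344 and 0.0324, with 0.0324 to 0.992 over all alternatives). In edgeR it was -0.00636 without PD100 replicate 2 and -0.00308 without PD800 replicate 1. The length of *Atm* differed by more between the PD100 libraries than between the PD800 libraries.

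The position of the genes was not used to choose them. The 42 members lie on 16 chromosomes, and each was set beside its 40 nearest tested genes, by the midpoints of the genes in GENCODE M21 on GRCm38 (the assembly also called mm10). Members and neighbours often had the same sign. Across the 42 genes, which are not independent replicates and share libraries and in part neighbours, Pearson's r between the log2 fold change of the member and the median of its neighbours was 0.815 and Spearman's rho 0.702, and the signs were equal for 34, or 81.0%. For the other 12759 tested genes with a mean TPM at least that of the least abundant member, on chromosomes with more than 40 tested genes, Pearson's r across genes was 0.421 and Spearman's rho 0.468, and the signs were equal for 66.3%. The difference between members and other genes was not tested. *Dna2* had a log2 fold change of -0.76 and its neighbours a median of -0.77. *Rad51d* and *Wrn* had -0.69 and -0.76, beside medians of -0.73 and -0.66. *Xrcc3* and *Rad51b*, at 1.26 and 1.03, had neighbours with medians of 0.70 and 0.69. *Rad51c*, at -1.17, lay beyond the median of its neighbours, which was -0.46, though they ranged from -3.00 to 2.61 and 6 of them were called lower by edgeR. *Fancm*, at 0.75, lay beyond a median of 0.13. The largest difference below the neighbours' median was that of *Fancb*, at -0.40 beside a median of 0.35. After the neighbours' median was taken off each member, the median of the members was 0.0696. The part of position in these changes was not tested beyond this.

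**Figure D3:**
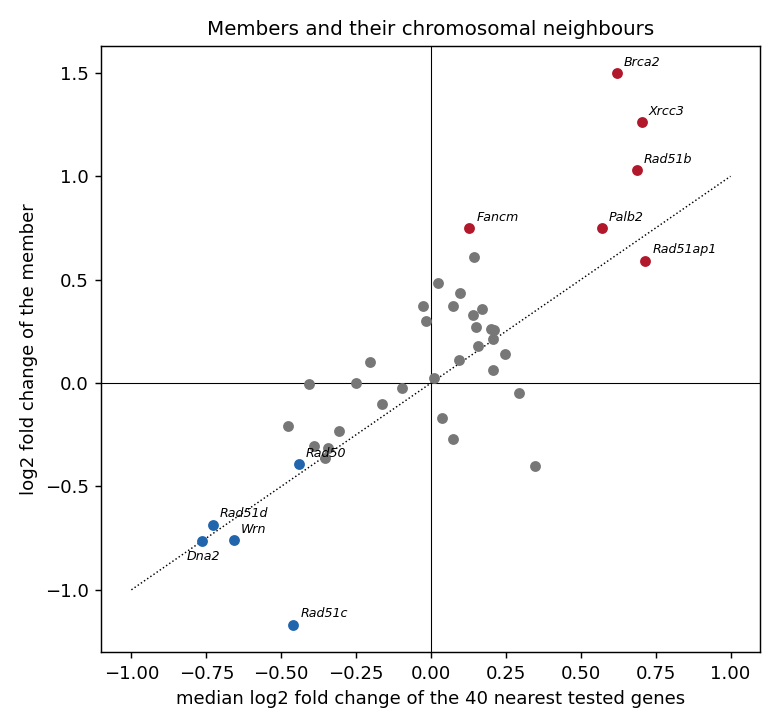
Log2 fold change of each of the 42 genes against the median log2 fold change of its 40 nearest tested genes, with a dotted line where both are equal and the genes past an adjusted p of 0.01 named. *Brca2* at 1.497 and *Rad51c* at -1.17 lie farther from the line than *Dna2*, *Rad51d* and *Wrn*.

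*Brca2* lies 1.13 Mb from the last annotated base of chromosome 5. The paper names the terminal region of chromosome 5 among a few copy-number changes specific to PD800. The part of copy number in the levels given here was not tested. The median over the 40 tested genes nearest to *Brca2* was 0.62 in log2 fold change, and 12 of them were called higher and 2 lower by edgeR. Of the 3 tested genes before it, *B3glct*, *Rxfp2* and *Fry* had log2 fold changes of 1.87, 1.47 and 1.84 (edgeR adjusted p = 0.000376, 0.0834 and 5.49e-05), and *Rxfp2* did not pass. Of the 3 that follow by midpoint, *Gm42531*, which lies within *Brca2*, passed at 1.299, while *N4bp2l1* at 0.92 and *Gm43598* at -0.01 did not (edgeR adjusted p = 0.00238, 0.0240 and 0.982). Next to *Xrcc3*, *Klc1* on one side and *Zfyve21* on the other had log2 fold changes of 1.04 and 1.10 (edgeR adjusted p = 0.00182 and 0.000506). Beside *Rad51b*, *Zfyve26* had 0.05 and did not pass, and *Zfp36l1* had 0.86 (edgeR adjusted p = 0.680 and 0.000793). Chromosome 11 holds 8 members, *Rad51c*, *Rad51d*, *Brca1*, *Brip1*, *Rad50*, *Top3a*, *Eme1* and *Fancl*, a group made after the values were seen. The estimates of 7 of them were below 0, with a median of -0.34. Over the 1442 other tested genes of that chromosome the median was -0.25, and 67.1% lay below 0. Chromosome 12 holds *Rad51b*, *Xrcc3*, *Gen1* and *Fancm*, with a median of 0.89, while the median over its 751 other tested genes was 0.36.

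The exons of 14 members overlap those of a protein-coding gene in GENCODE M21, and the division of reads is uncertain there. *Atrip* and *Trex1* share 1147 bases, and *Rad54b* and *Fsbp* 2068 bases, on the same strand, where strand would not divide reads. *Xrcc3* and *Klc1* share 12 bases on opposite strands, and the strand used for counting was not given in the sources used here. *Brca2*, *Rad51b* and *Rad51c* overlap no protein-coding exon.

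Promoter windows of 250 bases before to 50 bases after the start were found in RefSeq's table (GRCm38.p6) for 31 of the 42 members, or 73.8%, which is under the minimum of 80% set for such a comparison, so a share over the members is void. The windows were searched on both strands for the E2F motif (TTTCGCGC, TTTGGCGC, TTTCCCGC or TTTGCCGC), the CHR element (TTTGAA) and the CCAAT box, none of which contains another. They occur in 2.6%, 20.2% and 41.1% of the 27025 genes of the table. The 250 bases before the start of the 3 members called higher are shown, without the 50 bases after it, because these genes were called in the same direction. Motifs are in capitals, and a match is a description of the sequence. The window of *Brca2* (chr5:150522371-150522620, plus strand) holds 1 E2F motif, read on the other strand and starting 168 bases before RefSeq's start. That of *Xrcc3* (chr12:111813880-111814129, minus strand) holds 6 CCAAT boxes, and that of *Rad51b* (chr12:79297032-79297281, plus strand) holds 1. A further RefSeq start of *Rad51b* has 250 bases (chr12:79297101-79297350) that hold an exon of the gene and are not shown. With the 50 bases after the start, the searched windows of *Rad51b* also hold a CHR element, which lies outside the 250 bases of either start. The searched windows of *Rad51c*, the member called lower, hold an E2F motif, also outside the 250 bases before its starts.
Brca2: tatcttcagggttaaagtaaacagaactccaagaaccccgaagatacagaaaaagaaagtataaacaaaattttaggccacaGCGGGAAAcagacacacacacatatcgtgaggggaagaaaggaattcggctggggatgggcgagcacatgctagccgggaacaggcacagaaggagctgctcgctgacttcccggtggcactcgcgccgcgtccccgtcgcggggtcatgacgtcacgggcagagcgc
Xrcc3: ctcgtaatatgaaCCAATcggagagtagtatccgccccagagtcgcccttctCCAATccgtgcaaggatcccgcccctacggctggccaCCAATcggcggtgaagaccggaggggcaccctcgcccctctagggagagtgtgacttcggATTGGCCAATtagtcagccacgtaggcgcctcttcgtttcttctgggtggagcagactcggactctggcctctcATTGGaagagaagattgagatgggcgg
Rad51b: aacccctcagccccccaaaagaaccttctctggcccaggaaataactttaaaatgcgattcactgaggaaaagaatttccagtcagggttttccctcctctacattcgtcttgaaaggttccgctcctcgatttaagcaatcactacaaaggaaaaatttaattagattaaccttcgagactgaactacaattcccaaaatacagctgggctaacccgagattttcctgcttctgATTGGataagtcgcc

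Of 56 other genes of the same pathways, 54 were matched and tested. By edgeR, 4 of them were called higher, where 6.28% of all tested genes were, which is near that share. None was called lower, where 8.81% of all tested genes were, since no estimate in the list was under -0.85. At an adjusted p under 0.01 alone 10 were higher and 4 lower, against 13.1% and 15.4% of all tested genes, the latter 4 being *Trp53bp1*, *Sfr1*, *Mcm9* and *Rtel1*, at log2 fold changes from -0.85 to -0.39. The median log2 fold change of the list was 0.11, the same as that of the members to 2 decimals. *Cenpx*, which encodes a histone-fold partner of FANCM, was at 14.4 and 12.9 CPM at PD100 and at 50.5 and 53.7 CPM at PD800, a log2 fold change of 1.93 (SE 0.09, edgeR adjusted p = 7.04e-05). *Faap100*, which encodes the partner of FANCB and FANCL in the core complex, was at 16.8 and 18.8 CPM at PD100 and at 58.9 and 60.5 CPM at PD800, a log2 fold change of 1.75 (SE 0.09, edgeR adjusted p = 8.09e-05). Neither gene had groups that overlapped. Both lie near the end of chromosome 11, at 1.26 and 1.59 Mb from its last annotated base, and the 40 tested genes nearest to them had medians of 1.42 and 1.54. *Recql*, a helicase gene, and *Eme2*, which encodes a partner of MUS81, had log2 fold changes of 1.26 and 1.17 (SE 0.08 and 0.09, edgeR adjusted p = 0.000138 and 0.000316). The neighbours of *Recql* had a median of 0.97 and those of *Eme2* a median of -0.03. The exons of *Eme2* overlap those of *Spsb3* and *Mapk8ip3*, and those of *Recql* overlap those of *Pyroxd1*.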

How the data were processed

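RNA of DKO741 cells was sequenced in 2 libraries at PD100 and 2 at PD800. For each gene the authors deposited the output of RSEM 1.3.0, run on paired-end reads that STAR 2.5.3a had placed on mm10. The deposited expected count is RSEM's estimate of reads, shared out where a read fits several genes, with no scaling for depth. The deposited TPM and FPKM are scaled for length and depth, and FPKM was left out here. The other deposited columns are the length and the effective length of a gene in bases. For their own tests the authors used DESeq2 1.18.1. The annotation release and RSEM's strand setting were not given in the sources used here.

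After rounding of the expected counts, edgeR 4.0.16 in R 4.3.3 was run with TMM factors, filterByExpr (minimum count 10) and its quasi-likelihood test, with Benjamini-Hochberg adjustment over all 19148 tested genes. The SE is the log2 fold change divided by the root of the F statistic. The procedure was tested on simulated data. Groups follow the numbers 100 and 800 in the labels. The chi-square per degree of freedom between replicates was 65.3 at PD100 and 10.1 at PD800. Alternatives were DESeq2 1.42.0, its size factors, upper-quartile factors, mitochondrial genes taken out, no filter, at least 10 counts in every library, limma 3.58.1 on log2(TPM + 1) and log2(TPM + 0.1), the replicate block, a tested 2-fold change, neighbours taken off and each library left out. Coordinates are from GENCODE M21, which holds 53274 of the 53379 identifiers and 19133 of the 19148 tested genes.

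The members and lists were chosen with earlier results of these data known. Full statistics are given for called members, for the highest and the lowest log2 fold change in each role, and for the 3 highest and 3 lowest members by mean TPM. Of the other pathway genes and the S and G2 genes, called genes are named, at most 4 in each direction. *Rad51d*, *Palb2*, *Rad50*, single neighbours, genes lower in the other pathway list and the groups by chromosome were chosen after their values were seen. So were the S and G2 genes named at an adjusted p under 0.01 alone. Protein sequences were not analysed here.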

Additional observations from a re-analysis of the deposited data

How the results depend on the processing

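With DESeq2's test or size factors, upper-quartile factors, mitochondrial genes taken out or at least 10 counts in every library, the counts of called members stayed within 1.5 times of those above. Limma on log2(TPM + 1) called 1 member higher and 0 lower, where 4.80% of all genes were called lower, and on log2(TPM + 0.1) 1 higher and 1 lower, against 9.29%. By adjusted p alone each gave 3 higher, against 3.72% and 3.69% of all genes, and 5 lower, against 12.2% and 12.6%, and the members' medians were -0.11 and -0.13, while all genes shifted by -0.12 and -0.21. No filter gave 12 higher by adjusted p, where 12.3% of all genes were higher. By adjusted p alone, the share higher among the members was above that among all genes in every setting that gave such a count. This includes the main fit, with 6 of 42 members against 13.1% of all genes. These differences were not tested. A fold change over 2 tested in the model left 1 higher and 0 lower, and taking off the 40 nearest genes gave a median of 0.0696. The replicate block gave 12 higher and 8 lower by adjusted p, against 20.1% and 21.5% of all genes, with *Rad54l*, *Rad54b*, *Rbbp8*, *Rmi1*, *Fancf* and *Atrip* newly higher and *Brip1*, *Top3a* and *Fancb* newly lower; same-numbered libraries deviated together (correlation 0.35), but 2 pairs share only a number. With each library left out, where the lone library is assumed to vary like the other group, called members ranged from 2 to 3 higher, members by adjusted p from 4 to 14 higher and from 1 to 10 lower, and the median from 0.08 to 0.12. Sign changes among the genes with full statistics were *Exo1* (0.00690 with upper-quartile factors, -0.0453 to 0.0148 over libraries left out), *Slx4* (-0.18 and -0.19 on the TPM scales), *Fancd2* (-0.0154 and -0.0166) and *Atm* (-0.51 and -0.56, -0.00636 to 0.0505 over libraries left out). Of the other members, *Xrcc2*, *Bard1*, *Nbn*, *Blm*, *Fancl* and *Atr* turned on the TPM scales, *Rad52*, *Gen1*, *Fance* and *Fancl* with single libraries left out, and *Fancl* also with DESeq2, its size factors, mitochondrial genes taken out, no filter and at least 10 counts. Of 299 values of genes with full statistics under alternatives, 254 kept their direction and their side of an adjusted p of 0.01, with the fold change not counted, 17 no longer passed, 17 newly passed and 11 changed sign; the cause was not tested. With 2 libraries a group, an exact two-sided permutation test of 1 gene cannot go below 0.333, so each p rests on the spread edgeR estimates across genes.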

Other observations

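Many recombination genes are transcribed in S and G2 phase, so 30 genes of these phases were read beside them. By edgeR's quasi-likelihood test, 2 were more than 2-fold higher with an adjusted p below 0.01, against 6.28% of all tested genes, and none was called lower, against 8.81%, since no estimate was under -0.89. At an adjusted p under 0.01 alone 8 were higher and 4 lower, against 13.1% and 15.4% of all tested genes. The 4 lower were *Cdt1*, *Ccne2*, *Ccne1* and *Mcm5*, at log2 fold changes from -0.89 to -0.45. The 8 higher were *Aurka*, *Mki67*, *Plk1*, *Mcm7*, *Ccnb2*, *Ccnb1*, *Tyms* and *Ccna2*, from 1.28 to 0.43. The median log2 fold change of the 30 genes was 0.04, which covers changes in both directions. The genes called were *Aurka*, a mitotic kinase gene, with a log2 fold change of 1.28 (SE 0.08, edgeR adjusted p = 0.000172), and *Mki67*, a proliferation marker, with 1.09 (SE 0.10, edgeR adjusted p = 0.000491). *Aurka* was at 85.1 and 94.6 CPM at PD100 and at 214 and 222 CPM at PD800, and *Mki67* at 412 and 359 CPM and then 831 and 804 CPM. The summed TPM of the 30 genes was 1763 and 1788 at PD100 and 1624 and 1588 at PD800, with *Top2a* the most abundant. The part of cell cycle phase in the changes of the repair genes was not tested.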
